A study of Danio rerio with 121 samples.

Results

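The libraries described here are 8 of zebrafish embryos with 6 somites (6 ss) and 8 of embryos with 10 somites (10 ss), out of 121 samples in the series. They were chosen by their titles, which carry the stage and the mark S1 to S8, and are called S libraries below, since the labels do not say what S stands for. Both groups are whole embryos of the RIKEN WT (RW) strain, with no mutation, transgene or treatment named in the labels. The stage is the stated difference between them. For both groups the sample sheet gives the year 2020, without saying what was done in that year. The stage is given in somites and not in hours. The deposited sample sheet gives each library a number used, 25 for every 6 ss library and 20 for every 10 ss library, without saying what was counted, while the labels speak of a single embryo. The methods of the study describe pools of embryos, but for later stages than these. How many embryos a library holds is therefore not settled, and this number and the stage cannot be told apart. Nothing says that the 8 libraries of a stage came from separate clutches, so the p-values measure the spread among these libraries, which may be technical.

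Each library was made by Lasy-Seq, a 3′ RNA-Seq protocol in which the samples are indexed at reverse transcription and pooled early, so that a count stands for an RNA end and not for transcript length. The libraries held 1746886 to 5415900 estimated counts (6 ss) and 1958055 to 4098778 (10 ss), over 14581 to 17128 gene symbols with a count. Of 27 defining markers of the tissues expected in a whole embryo, 23 had a count in all 16 libraries. The exceptions were the neuronal elavl4, the cardiac nkx2.5 and myl7, and the pronephric cdh17, each with 0 counts in some libraries of both stages. Of 9 markers of other sources, 6 were counted in all 16 libraries. The summed level of the 4 oocyte or maternal markers was 780.3 to 883 CPM (counts per 1e6 counts of the library) at 6 ss and 771 to 885 CPM at 10 ss, most of it from the linker histone h1m. The pancreas and liver markers summed to at most 11.6 CPM and the photoreceptor markers to at most 12.2 CPM at either stage. Their part in the results was not tested.

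During somitogenesis the zebrafish body axis grows from the tailbud, where progenitors held in an immature state by Wnt and FGF signals feed the presomitic mesoderm. A clock of oscillating Hairy/E(spl) repressors, coupled between cells by Notch, sets the pace at which that tissue is cut into somites, and the newly formed somites then switch on muscle genes. In the same hours the neural plate folds, the notochord secretes its sheath, the hatching gland fills with protease and the first blood cells form in the lateral mesoderm. In whole embryos, fewer cells of a type and less RNA per cell cannot be told apart.

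Between 6 and 10 ss, 1262 of 15580 genes tested changed (8.10%), 630 upward and 632 downward (4.04% and 4.06%; edgeR quasi-likelihood test, Benjamini-Hochberg adjusted p under 0.05). Most changes were small. A log2 fold change of at least 1 was reached by 172 of the genes that rose (1.10% of genes tested) and by 92 of those that fell (0.591%). The lowest library of one stage lay above the highest of the other for 160 genes that rose (1.03%) and 140 that fell (0.899%). The median log2 fold change over all genes tested was 0.00. Called members were all lower in the segmentation, tailbud, BMP and nucleolar lists and all higher in the sarcomere, hatching gland and notochord lists, as the plot of called members by gene list shows. The counts of list members given below stand beside these shares of 4.04% higher and 4.06% lower over all genes tested.

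**Figure D1:**
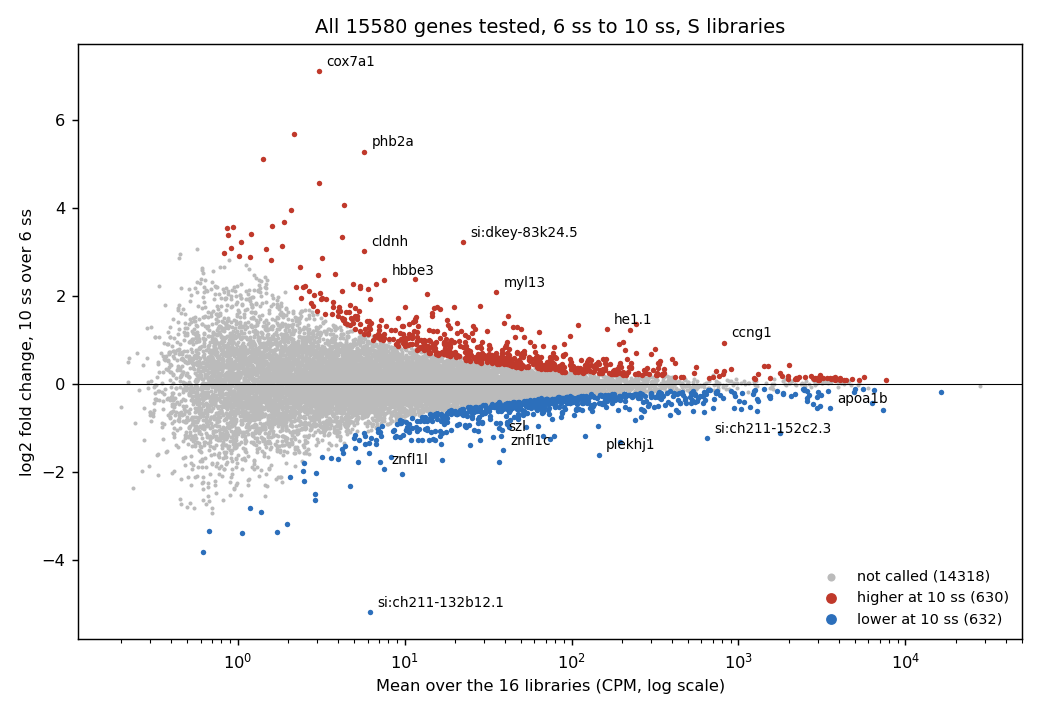
Log2 fold change of 10 ss over 6 ss (vertical axis) against the mean level over the 16 libraries in CPM (horizontal log axis) for the 15580 genes tested, with genes that rose in red (630), genes that fell in blue (632) and the others in grey. The largest changes sit among genes of low level, and ccng1 and si:ch211-152c2.3 stand out among genes of high level.

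**Figure D2:**
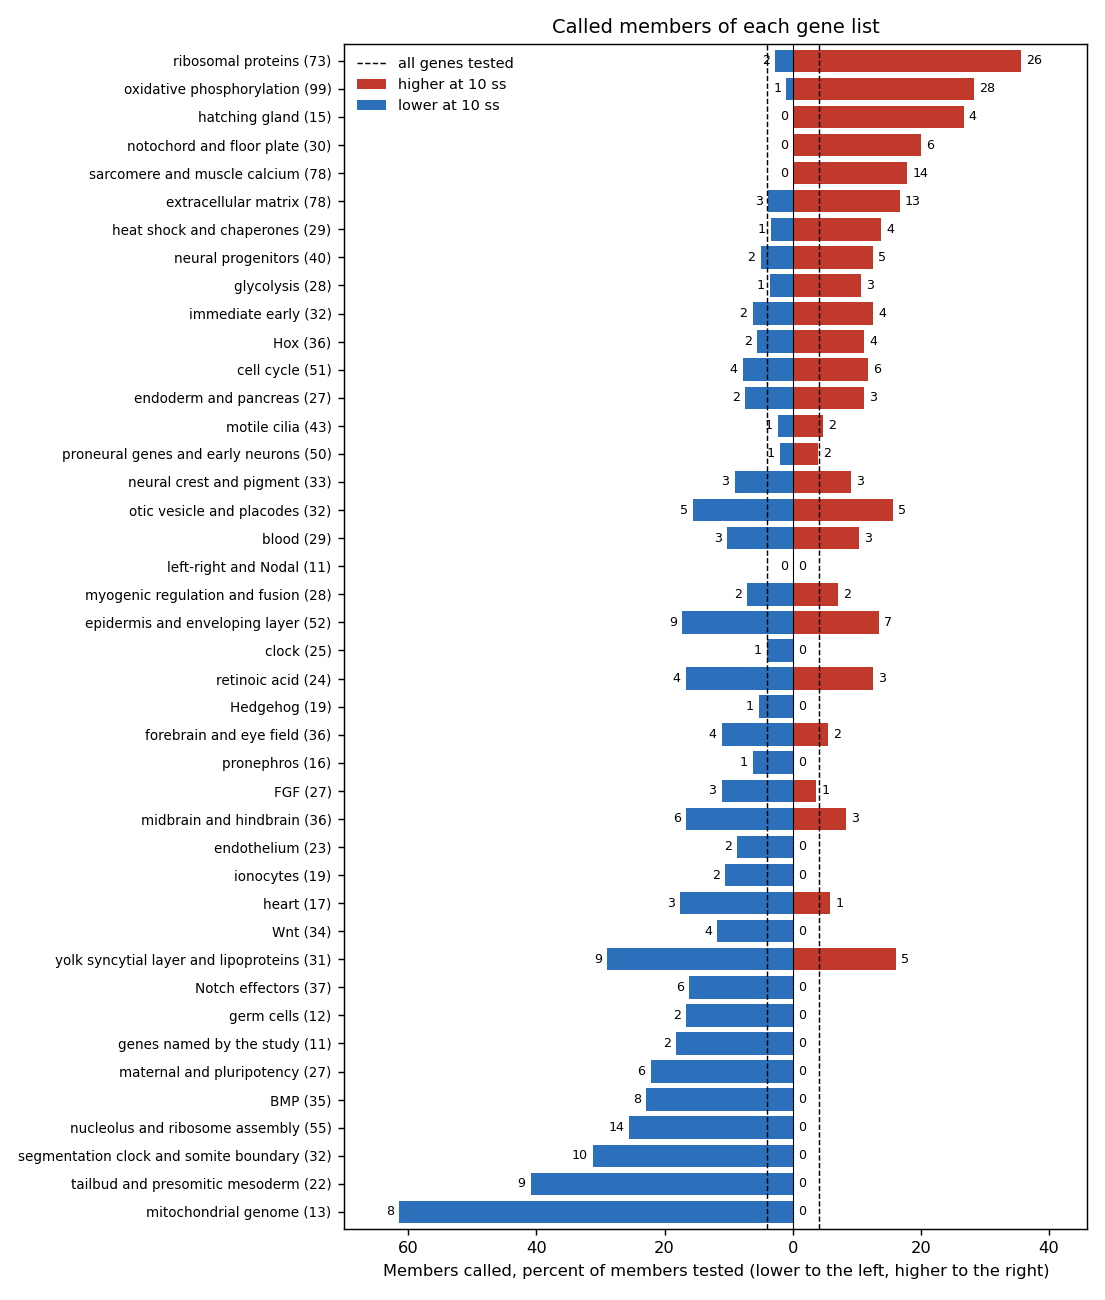
Members of each gene list that were called, in percent of the members tested (in brackets), with those that rose to the right in red, those that fell to the left in blue and the number of genes at the end of each bar. The dashed lines mark 4.04% and 4.06%, the shares over all genes tested. A gene can stand in more than 1 list.

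Genes of the segmentation clock and of somite boundaries were lower at 10 ss or did not pass the test. Of 32 members tested, 10 fell and 0 rose, with a median log2 fold change of -0.27. In the plain libraries described below, 4 of the 32 rose and 7 fell from 6 to 15 ss (3.87% and 4.49% over all genes there). From 10 to 15 ss in the S libraries 1 rose and 5 fell (3.31% and 3.36% over all genes there). The oscillating repressor her1 was at 21.9 to 33.7 CPM (median 27.1) at 6 ss and at 9.60 to 22.5 CPM (median 19.3) at 10 ss, a log2 fold change of -0.68 ± 0.19 (SE, n = 8 and 8, adjusted p = 0.0096). Its partner her7 fell by 0.64 on the log2 scale (adjusted p = 0.0278), and the Notch ligand dlc, which couples the clocks of neighbouring cells, by 0.47 (adjusted p = 0.0172). The ranges of the stages overlapped for all 3 genes, and all 3 lost the call in some of 25 alternatives. Her7 lost it without 6 ss replicate 1, 3 or 5, without 10 ss replicate 3, 7 or 8 and in the fit over 81 libraries, her1 in the fit over 81 libraries and dlc without 6 ss replicate 3 and without 10 ss replicate 5. Factors that end the presomitic programme at the forming boundary fell as well. Ripply1, which removes the T-box activator Tbx6 as a segment is laid down, was at 89.5 to 122 CPM (median 109) at 6 ss and 55.0 to 79.7 CPM (median 68.2) at 10 ss, with no overlap (log2 fold change -0.65 ± 0.10, adjusted p = 4.23e-07). Its relative ripply2 fell by 0.93 and tbx6 by 0.52. The protocadherin gene pcdh8, which is expressed in the anterior presomitic mesoderm, had the largest fall among the called members, from 43.9 to 86.6 CPM (median 73.3) to 24.47 to 52.3 CPM (median 36.3) (log2 fold change -0.98 ± 0.13, adjusted p = 3.14e-08). The fibronectin receptor subunit itga5 (-0.72) and its ligand fn1a (-0.50) were lower as well, with adjusted p = 0.0432 for itga5 and 2.96e-06 for fn1a. The call for itga5 was lost in 13 of the 25 alternatives (without 6 ss replicate 1, 2, 3, 4, 6 or 7, without 10 ss replicate 2, 3, 4, 5 or 7, with library totals and in the fit over 81 libraries).

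Tailbud and presomitic genes that changed fell. Of 22 members tested, 9 fell and 0 rose (median log2 fold change -0.32), and 13 did not pass. Cdx1a, a caudal homeobox factor of posterior tissue, was at 42.7 to 70.0 CPM (median 57.1) and then 18.1 to 44.3 CPM (median 25.8) (log2 fold change -0.98 ± 0.14, adjusted p = 1.87e-07), with only the highest 10 ss library inside the 6 ss range. The signal gene wnt8a fell by 0.88 (adjusted p = 1.49e-05) and fgf8a by 0.62 (adjusted p = 5.28e-04). The tailbud factors sp5l (-0.51), tbx16 (-0.45) and cdx4 (-0.26) were lower too. Msgn1, which drives progenitors into the presomitic state, fell from 330.3, 366 and 385 CPM (lowest, median and highest) to 227, 310.4 and 328 CPM, a small change (-0.30 ± 0.06) in which no library overlapped. The brachyury gene tbxta was at 25.0 to 63.2 CPM (median 50.7) and 31.3 to 50.9 CPM (median 37.3) and did not pass (log2 fold change -0.33, adjusted p = 0.155). In a fit over all 81 libraries of the numbered set, which includes other stages, 4 members of the tailbud list and 6 of the segmentation list were called lower. Msgn1, tbx16 and cdx4 were not among them, and 1 tailbud member was called higher. Leaving out any single library gave 8 to 11 and 7 to 10 lower, with at most 1 tailbud and 0 segmentation members higher.

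**Figure D3:**
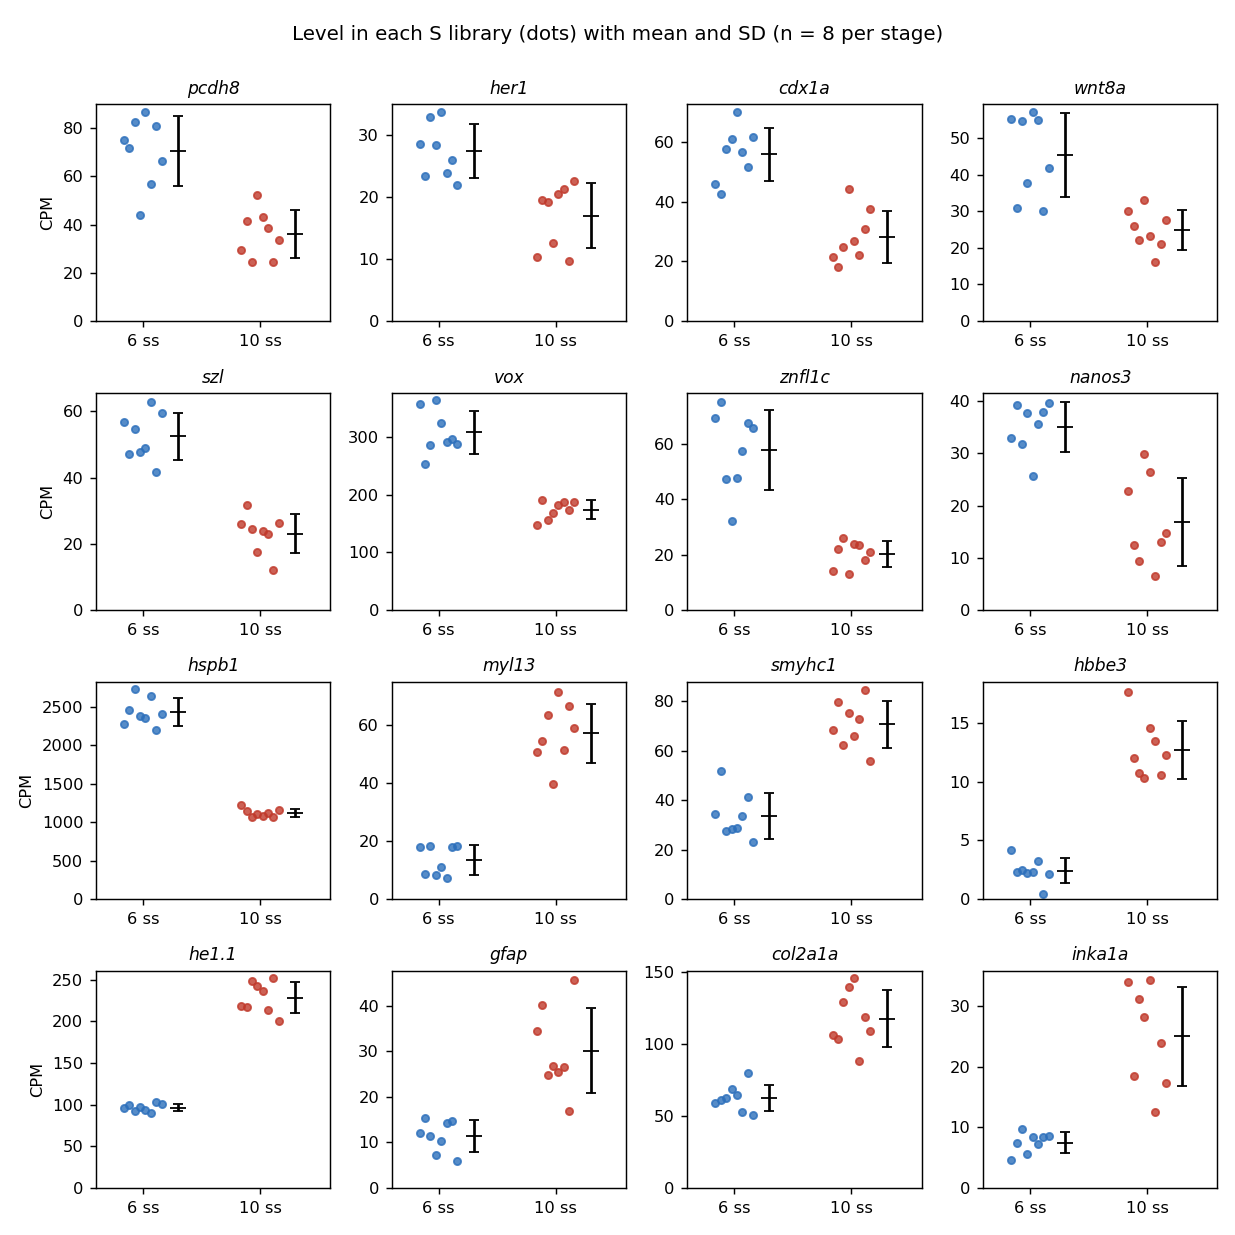
Level in CPM (vertical axis from 0) of 16 genes in each of the 8 libraries of 6 ss (blue) and the 8 of 10 ss (red), with the mean and SD beside each group in black. Genes such as pcdh8, vox and hspb1 are lower at 10 ss, and genes such as myl13, he1.1 and gfap are higher. For her1, pcdh8, cdx1a, wnt8a and nanos3 the ranges of the stages overlap.

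Among signalling pathways, the BMP list had 8 of 35 members tested lower and 0 higher (median log2 fold change -0.20). BMP signals set ventral and posterior fates. Szl, a secreted inhibitor of the protease that frees BMP from Chordin, fell from 41.7 to 62.9 CPM (median 51.7) to 12.0 to 31.6 CPM (median 24.1) (log2 fold change -1.18 ± 0.15, adjusted p = 1.59e-09), without overlap. The ventral homeobox repressors fell too. Vox was at 308 ± 38.0 CPM at 6 ss and 174 ± 16.0 CPM at 10 ss (mean ± SD, n = 8 each), also without overlap, and fell by 0.82 (adjusted p = 4.23e-16), while vent fell by 0.93 and ved by 0.69. The ligand bmp7a (-0.68, adjusted p = 0.0125) and the antagonist chrd, which encodes Chordin (-0.42, adjusted p = 0.0154), also fell. In the fit over 81 libraries 3 BMP members were called lower, and bmp7a, vent and chrd were not among them. The call for chrd was also lost without 10 ss replicate 6. Of 34 Wnt genes 4 fell and 0 rose, among them wnt8a, sp5l and cdx4, already counted as tailbud genes. Of 37 Notch effectors 6 fell and 0 rose, led by her11 (-1.27) and her5 (-0.90), which mark the border of midbrain and hindbrain. In the fit over 81 libraries 2 fell and 1 rose, and her5 was not called. Her1, her7 and dlc, already counted in the segmentation list, were also among these 6. Of 27 FGF genes 3 fell and 1 rose, among them the phosphatase gene dusp2, at 2.85 to 9.63 CPM (median 6.099) and 0 to 4.62 CPM (median 1.78) (adjusted p = 0.0156), and the receptor gene fgfr4 (-0.46). Hedgehog genes gave 1 lower and 0 higher of 19 (5.26% lower, near the 4.06% over all genes tested).

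Retinoic acid genes changed in both directions (3 higher and 4 lower of 24). Dhrs3b, whose product turns retinaldehyde back to retinol, fell from 79.2 to 105 CPM (median 89.8) to 50.9 to 63.4 CPM (median 56.4) with no overlap (log2 fold change -0.68 ± 0.10, adjusted p = 1.62e-07). Cyp26a1, which breaks retinoic acid down, fell by 0.50 (adjusted p = 0.0218). Aldh1a3, a retinaldehyde dehydrogenase of the eye, rose from 0 to 4.60 CPM (median 0.756) to 2.01 to 9.39 CPM (median 4.84) (adjusted p = 0.0156), and the binding protein gene crabp1b rose by 1.00 (adjusted p = 0.00417). The call for cyp26a1 was lost without 6 ss replicate 4, 5 or 6, without 10 ss replicate 5 or 6 and in the fit over 81 libraries, and that for aldh1a3 without 10 ss replicate 3.

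Contractile genes that changed rose. Of 78 sarcomere and muscle calcium genes tested, 14 were higher at 10 ss and 0 lower (median log2 fold change 0.17). DESeq2 called 15 higher and 2 lower, the fit over 81 libraries 17 and 3, and leaving out a library 13 to 16 higher and at most 1 lower. The largest rise was that of myl13, a myosin light chain, from 7.25 to 18.4 CPM (median 14.4) to 39.8 to 71.6 CPM (median 56.8) (log2 fold change 2.08 ± 0.17, adjusted p = 4.19e-17). The slow myosin heavy chain smyhc1, the first myosin of the adaxial cells beside the notochord, rose from 23.0 to 51.8 CPM (median 31.0) to 55.6 to 84.5 CPM (median 70.5) (1.08 ± 0.13). For both genes every 10 ss library lay above every 6 ss library. Tnnt2c, a troponin T, rose by 1.00 and the intermediate filament gene desma by 0.71. Among the skeletal actins, acta1a rose from 156 ± 24.4 CPM to 264 ± 20.3 CPM (mean ± SD, n = 8 each, log2 fold change 0.76) and actc1b by 0.49. Actins and tandem myosin genes share sequence, so that their counts could be split between copies. The acetylcholine receptor subunit chrng was called higher (1.22, adjusted p = 0.0282) but lost the call without 6 ss replicate 1 or 10 ss replicate 5, 6 or 7.

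Of 28 genes for myogenic regulation and fusion, 2 rose and 2 fell. Myod1 was at 12.5 to 28.4 CPM (median 21.4) at 6 ss and 15.4 to 36.6 CPM (median 23.7) at 10 ss (log2 fold change 0.18, adjusted p = 0.694). Myf5 (-0.23, adjusted p = 0.165) and myog (0.24, adjusted p = 0.581) did not pass either. The cofactor vgll2b rose by 1.49 (adjusted p = 0.0124) and mef2ca by 0.70 (adjusted p = 0.0467). The call for mef2ca was lost in 10 of 25 alternatives (without 6 ss replicate 1, 3, 4, 6 or 8, without 10 ss replicate 1, 4, 5 or 6 and with the filter of a count in any library), and that for vgll2b without 10 ss replicate 5 or 8. The 2 members that fell, tbx6 and cdx1a, are presomitic factors already described. In the heart list 1 gene rose and 3 fell of 17. Gata5 (-0.61, adjusted p = 0.0117) and gata6 (-0.53, adjusted p = 0.00826), factors of heart and endoderm precursors, were lower, while nkx2.5 and myl7 had medians under 1 CPM at both stages and were not called. The call for gata6 was lost in the fit over 81 libraries.

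Notochord genes that changed rose. Of 30 notochord and floor plate genes tested 6 rose and 0 fell. Col2a1a, the main collagen of the notochord sheath, went from 50.8 to 80.2 CPM (median 61.9) to 88.4 to 146 CPM (median 114) with no overlap (log2 fold change 0.92 ± 0.10, adjusted p = 1.87e-11). Its partner collagen gene col9a2 rose by 1.40 (adjusted p = 4.20e-04) and the matricellular gene ccn2a by 0.95 (adjusted p = 1.40e-04). The signal gene shha (0.46, adjusted p = 0.122) and the notochord factor noto (-0.43, adjusted p = 0.0887) did not pass. Over the whole extracellular matrix list 13 of 78 rose and 3 fell. Its largest rises were col7a1, the anchoring fibril collagen of skin, from 0 to 2.34 CPM (median 0.888) to 1.32 to 10.7 CPM (median 4.17), and tnc, which encodes tenascin C, by 1.54. Fn1a was among the 3 that fell. The call for col7a1 was lost without 10 ss replicate 4.

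Blood genes changed in both directions. Hbbe3, an embryonic beta globin, rose from 0.417 to 4.18 CPM (median 2.27) to 10.29 to 17.6 CPM (median 12.14), so that no library overlapped (log2 fold change 2.36 ± 0.34, adjusted p = 7.58e-08). Its relative hbbe1.1 was at 17.1 to 24.6 CPM (median 18.4) and 12.5 to 35.6 CPM (median 28.7) and passed only narrowly (adjusted p = 0.0425), with the call lost in 15 of 25 alternatives (without 6 ss replicate 1, 2, 3, 4, 6, 7 or 8, without 10 ss replicate 1, 2, 3, 5, 6 or 8, with voom and with the replicate block). Gata1a, the erythroid master factor, was not called (0.47, adjusted p = 0.461). The myeloid factor spi1b rose by 1.36 (adjusted p = 0.0294), while lcp1, an actin bundler of leukocytes, fell by 0.52 (adjusted p = 0.00434). Tal1 (-0.48) and etv2 (-0.46), which act in the common precursors of blood and endothelium, fell with adjusted p = 0.0319 for tal1 and 0.0027 for etv2. The call for spi1b was lost without 6 ss replicate 1, 3, 6 or 7 and without 10 ss replicate 1, 6 or 8. That for tal1 was lost without 6 ss replicate 3, 5 or 6, without 10 ss replicate 1, 2, 3, 7 or 8 and in the fit over 81 libraries, and that for lcp1 in the fit over 81 libraries. In all, 3 blood genes rose and 3 fell of 29, and 2 endothelial genes fell of 23.

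Among neural genes, gfap and vim rose. Gfap, the intermediate filament of glia and neural progenitors, went from 5.89 to 15.4 CPM (median 11.8) to 16.8 to 45.6 CPM (median 26.7) without overlap (log2 fold change 1.39 ± 0.20, adjusted p = 2.00e-07). Vim, which encodes vimentin, rose by 1.13 (adjusted p = 1.26e-04). The POU factors pou3f3b, from 2.28 to 15.0 CPM (median 7.13) to 16.9 to 26.4 CPM (median 23.3) (log2 fold change 1.62 ± 0.25), and pou3f3a (1.14 ± 0.27) rose as well. They belong to no list and were picked after their values were seen. Of 40 progenitor genes 5 rose and 2 fell, and of 50 proneural and neuron genes 2 rose and 1 fell, the latter close to the shares over all genes. The eye field factors rx3 (-0.48, adjusted p = 0.0178) and six7 (-0.77, adjusted p = 0.0223) fell, with the call lost without 6 ss replicate 7, without 10 ss replicate 5 and in the fit over 81 libraries for rx3 and without 6 ss replicate 6 or 7, without 10 ss replicate 7 or 8 and in the fit over 81 libraries for six7. Of 36 forebrain and eye genes 4 fell, 2 rose and 30 did not pass (median log2 fold change 0.14). Mab21l1, a gene of the forming eye, rose from 1.67 to 3.04 CPM (median 2.76) to 3.05 to 10.0 CPM (median 7.38) (adjusted p = 0.00702). Her5, which keeps the midbrain-hindbrain border free of neurons, was at 13.3, 21.3 and 32.6 CPM (lowest, median, highest) and then 5.82, 12.9 and 17.0 CPM (adjusted p = 0.00267). Rfx4, a winged helix factor of neural tissue, fell from 10.6 to 19.9 CPM (median 15.5) to 2.64 to 8.00 CPM (median 7.30) (adjusted p = 2.45e-04).

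Neural crest genes moved in both directions, with 3 higher and 3 lower of 33. The early specifier foxd3 fell. It was at 45.0 to 70.6 CPM (median 56.0) and 28.8 to 51.0 CPM (median 42.2) (log2 fold change -0.44 ± 0.12, adjusted p = 0.0126). Sox10, which maintains migrating crest and its pigment and glial derivatives, fell by 0.59 (adjusted p = 0.0135), and sox9b by 0.31 (adjusted p = 0.0188). Ednrab, which encodes an endothelin receptor, went from 9.40 to 21.4 CPM (median 15.8) to 29.2 to 47.5 CPM (median 34.8) with no overlap (1.25 ± 0.18, adjusted p = 6.49e-08). Inka1a, an actin regulator of crest, went from 4.60 to 9.78 CPM (median 7.87) to 12.6 to 34.3 CPM (median 26.1), also with no overlap (1.71 ± 0.23, adjusted p = 1.18e-08), and the pan-crest transcript crestin rose by 0.42 (adjusted p = 0.00146). Of the 33 crest genes tested 27 did not pass. The call was lost without 6 ss replicate 3 or 6 and in the fit over 81 libraries for sox10, and without 6 ss replicate 1 or 7 and without 10 ss replicate 1 or 2 for sox9b. Of the 16 genes the study itself followed in craniofacial development, 11 had enough counts to be tested and 2, sox10 and sox9b, passed. That list was chosen by the study on samples of this series.

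Hatching gland genes that changed rose. He1.1, the hatching enzyme that later digests the egg envelope, was at 89.8 to 103 CPM (median 96.3) at 6 ss and 199.9 to 252 CPM (median 227) at 10 ss (log2 fold change 1.25 ± 0.07, adjusted p = 1.99e-24). He1.2, a near copy whose reads could be exchanged with it, went from 22.3 to 28.8 CPM (median 26.2) to 47.9 to 74.9 CPM (median 63.2). The cathepsin gene ctslb, the classical marker of the gland, rose from 1216 ± 103 CPM to 1619 ± 78.7 CPM (mean ± SD, n = 8 each). Every 10 ss library exceeded every 6 ss library for these 3 genes. Agr2, a disulfide isomerase of secretory cells, rose by 1.39 (adjusted p = 0.017). The call for agr2 was lost without 10 ss replicate 1. Together 4 of 15 gland genes tested rose and 0 fell.

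Skin genes changed in both directions. Of 52 epidermal and enveloping layer genes 7 rose and 9 fell. Krt18b rose from 0 to 3.38 CPM (median 1.56) to 4.92 to 13.9 CPM (median 7.81) (log2 fold change 2.28 ± 0.44), and tgm1, a transglutaminase that crosslinks the outer cell envelope, from 0 to 5.02 CPM (median 1.54) to 5.60 to 12.6 CPM (median 9.54) (2.24 ± 0.42). Tgm1 is not in that list, nor is cldnh, a claudin of epithelial junctions, which rose from 0 to 2.96 CPM (median 0.869) to 6.61 to 16.3 CPM (median 9.98) (3.02 ± 0.44). Not 1 of the 3 overlapped between the stages. Anxa1a, a membrane-binding annexin, fell by 0.58 from 214 to 264 CPM (median 219), and gata3, expressed in ionocytes and kidney as well as skin, by 0.59. The abundant keratin krt4 was at 5078 to 5435 CPM (median 5303) and 4899.6 to 5576 CPM (median 5184), with a log2 fold change of -0.03 (adjusted p = 0.695). Of 19 ionocyte genes 2 fell and 0 rose.

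Genes of the yolk syncytial layer, which feeds the embryo from the yolk, changed in both directions. Of 31 tested 5 rose and 9 fell. Apoa1b, the apolipoprotein of high-density lipoprotein, fell from 3652 to 4756 CPM (median 4192) to 2793 to 2973 CPM (median 2869) with no overlap (log2 fold change -0.55 ± 0.03, adjusted p = 1.02e-23). Afp4 fell by 0.43 in the same way. In the plain libraries described below neither gene passed from 6 to 15 ss (log2 fold change 0.07 for apoa1b and -0.11 for afp4). From 10 to 15 ss in the S libraries apoa1b rose by 0.22 (adjusted p = 9.01e-05). Apoa4b.1 rose by 0.52 and apom by 0.77. Of 12 germ cell genes 2 fell and 0 rose. Nanos3, which protects primordial germ cells, was at 25.7 to 39.6 CPM (median 36.7) at 6 ss and 6.53 to 30.0 CPM (median 13.8) at 10 ss (log2 fold change -1.04 ± 0.19, adjusted p = 4.97e-05), while ddx4, at 1.61 to 6.83 CPM (median 4.12) and 0.735 to 6.52 CPM (median 2.51), did not pass (adjusted p = 0.576). Celf1, which encodes an RNA-binding protein, fell by 0.44. The egg coat gene zp3b, an oocyte marker, fell by 0.85 (adjusted p = 0.033). Its call was lost without 6 ss replicate 1, 3, 5 or 8, without 10 ss replicate 1, 6 or 7 and in the fit over 81 libraries. Of 27 maternal and early zygotic genes 6 fell and 0 rose, including vent, vox, ved and chrd named above. With all 81 libraries in the fit 2 of these fell, and 3 to 6 when a library was left out.

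Among Hox genes, which mark position along the axis, 4 of 36 tested rose and 2 fell. The posterior hoxd12a rose from 2.51 to 7.23 CPM (median 4.76) to 6.02 to 26.5 CPM (median 14.5) (log2 fold change 1.75 ± 0.30, adjusted p = 5.80e-06) and hoxc11a from 0 to 4.82 CPM (median 1.35) to 3.02 to 10.5 CPM (median 6.42) (adjusted p = 0.00944). Hoxd3a, an anterior gene, rose by 1.32 as well. Hoxb1b, the early hindbrain gene, fell by 0.37 (adjusted p = 0.0143), and hoxa9a by 0.45 (adjusted p = 0.0349). The ranges of the stages overlapped for all 5, and the call for hoxa9a was lost in 8 of 25 alternatives (without 6 ss replicate 1 or 8, without 10 ss replicate 2, 4, 5 or 6, with library totals and in the fit over 81 libraries). That for hoxb1b was lost without 6 ss replicate 8 and in the fit over 81 libraries.

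Housekeeping machinery moved by small steps. Of 55 genes for the nucleolus and ribosome assembly, 14 fell and 0 rose (median log2 fold change -0.11), 8 of them without overlap (9 fell in the fit over 81 libraries). Ncl, which encodes nucleolin, went from 1597 to 1848 CPM (median 1729.9) to 1279 to 1478 CPM (median 1409) (log2 fold change -0.31 ± 0.04, adjusted p = 2.06e-09), and dkc1, the pseudouridine synthase dyskerin, from 552 to 648 CPM (median 588) to 415 to 549 CPM (median 447) (-0.37 ± 0.05). The ribosomal RNA acetylase gene nat10 fell by 0.54 and ubtf, a factor of RNA polymerase I, by 0.55. Ribosomal protein genes themselves went the other way, with 26 of 73 higher, by at most 0.23 (rpl5a), and 2 lower. The latter were rpl12 (-0.30) and rps2 (-0.19). The count moved with scaling and with single libraries, since 46 rose with library totals in place of TMM (trimmed mean of M values, the scaling used), 5 in the fit over 81 libraries, and 16 to 44 when a library was left out. Ribosomal protein genes took 20.5% to 21.9% of the counts of a 6 ss library and 21.8% to 23.3% of a 10 ss library.

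Nuclear genes of the respiratory chain that changed were mostly higher, and called genes of the mitochondrial genome were lower. Of 99 nuclear members 28 rose and 1 fell, cox4i1 by 0.23. Uqcrc2a, a core subunit of complex III, went from 44.7 to 92.3 CPM (median 61.4) to 143 to 181 CPM (median 149.6) (log2 fold change 1.34 ± 0.10, adjusted p = 9.22e-19). Cox7a1, among the 28 that rose, had 0 counts in every 6 ss library and 0.895 to 13.4 CPM (median 5.16) at 10 ss. This was at least 50.0-fold higher against a floor of 3 counts over the 8 libraries. The filter of a count in 8 libraries kept cox7a1 only through the 10 ss libraries, where it was high. Only 15 of the alternatives gave it an adjusted p, so that its call could not be checked in the others. In the S libraries of 15 ss described below, cox7a1 was at 11.0, 0, 5.73, 1.32 and 1.54 CPM in replicates 1 to 5. In the plain libraries it was at 0 to 2.02 CPM at 6 ss and 0 to 2.12 CPM at 15 ss. Of the 13 mitochondrial genes 8 fell and 0 rose (median log2 fold change -0.25). Mt-co1 went from 3324 to 4128 CPM (median 3592) to 1779.7 to 3102 CPM (median 2604) and mt-cyb from 1194 to 1603 CPM (median 1372) to 806 to 1058 CPM (median 982), with adjusted p = 2.56e-13 for mt-co1 and 2.35e-14 for mt-cyb. The mitochondrial genome as a whole took 1.71% to 1.96% of counts at 6 ss and 1.33% to 1.65% at 10 ss. In the plain libraries from 6 to 15 ss described below 8 of these genes rose and 0 fell, the opposite direction.

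Further families were noticed after the values were seen, and their counts are given only as a description. Of 42 genes for SR and hnRNP proteins, which bind RNA precursors and steer splicing, 18 fell and 2 rose. Srsf5a fell from 710.2 to 804 CPM (median 768) to 436 to 541 CPM (median 484) and hnrnpl2 by 0.47. The duplicates srsf6a and srsf6b changed in opposite directions, srsf6a from 117 to 146 CPM (median 141) to 269.8 to 376 CPM (median 311) and srsf6b from 62.1 to 89.3 CPM (median 69.0) to 36.6 to 50.2 CPM (median 46.0), both without overlap. In the plain libraries described below, srsf6a was at 224 to 299 CPM at 6 ss and 237 to 258 CPM at 15 ss. Srsf6b was at 38.6 to 80.0 CPM and 35.7 to 54.6 CPM there. In the S libraries of 15 ss, srsf6a was at 192 to 287 CPM and srsf6b at 53.7 to 74.5 CPM. In the fit over 81 libraries 11 members of this family fell. Of 40 proteasome subunits 10 rose and 0 fell, and of 74 mitochondrial ribosomal proteins 14 rose and 0 fell. Of the 8 znfl1 zinc finger genes 6 fell and 0 rose. Znfl1c went from 32.3 to 75.1 CPM (median 61.6) to 13.0 to 26.1 CPM (median 21.4) (log2 fold change -1.50 ± 0.15, adjusted p = 1.24e-12), znfl1 from 71.7 to 112 CPM (median 92.3) to 26.7 to 55.3 CPM (median 44.2), znfl1h fell by 1.35 and znfl1l had the log2 fold change -1.93. These 4 did not overlap between the stages. As near copies they may share reads, and their single values are uncertain. Of 191 other genes named znf 7 fell and 0 rose, against 4.06% over all genes.

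The largest changes among genes of at least 5 CPM whose stages did not overlap (283 genes) are given next. Phb2a, a copy of the gene for prohibitin 2 of the inner mitochondrial membrane, was at 0 to 0.569 CPM (median 0.114) at 6 ss and 5.76 to 18.8 CPM (median 10.9) at 10 ss (log2 fold change 5.29 ± 0.54, adjusted p = 1.85e-13). Si:ch211-132b12.1 did the opposite, from 6.96 to 21.1 CPM (median 10.21) to 0 to 2.18 CPM (median 0) (-5.19 ± 0.55, adjusted p = 1.24e-12). Si:dkey-83k24.5 rose from 1.07 to 7.97 CPM (median 4.37) to 32.2 to 55.6 CPM (median 37.3), and muc2.2, a gel-forming mucin, from 0.417 to 5.61 CPM (median 3.92) to 6.71 to 28.7 CPM (median 19.8). Among falls, plekhj1 went from 189 to 248 CPM (median 220.0) to 60.7 to 92.3 CPM (median 67.1) and CT955963.1 from 246 to 335 CPM (median 277) to 86.2 to 137 CPM (median 117). The gene zgc:101744 fell by 1.78 on the log2 scale. Ss18l2, a relative of a chromatin remodelling subunit, had a log2 fold change of -1.38. At high level, si:ch211-152c2.3 fell from 822 to 987 CPM (median 936) to 329.9 to 449 CPM (median 392.2) and the small heat shock protein gene hspb1 from 2199 to 2737 CPM (median 2399) to 1062 to 1224 CPM (median 1112) (log2 fold change -1.12 ± 0.04, adjusted p = 1.00e-38). The chaperonin subunit hspe1 and hsp90aa1.2, by contrast, rose by 0.66 and 1.02. The call for hsp90aa1.2 was lost without 10 ss replicate 2.

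Another 4 genes were higher in every 10 ss library than in any 6 ss library. They and the other genes of this paragraph are called genes of growth control here, a set that was not listed beforehand. Ccng1, gadd45aa, btg2 and cdkn1a also stand in the cell cycle list, and mdm2 in the immediate early list. Of the set, rps27l, bbc3, baxa, btg2 and cdkn1a were picked after their values were seen. Mdm2, a ubiquitin ligase, went from 18.9 to 41.0 CPM (median 29.9) to 41.3 to 88.2 CPM (median 70.34) (1.25 ± 0.14, adjusted p = 1.94e-11). Ccng1, which encodes cyclin G1, went from 494 to 622 CPM (median 570.3) to 984 to 1175 CPM (median 1084) (0.94 ± 0.05, adjusted p = 6.79e-29). Rps27l, a ribosomal protein paralog, went from 116 to 169 CPM (median 135) to 309.8 to 414 CPM (median 348) (1.36 ± 0.07), and phlda3, an inhibitor of Akt in mammals, from 4.55 to 9.60 CPM (median 6.56) to 13.5 to 29.4 CPM (median 25.4) (1.73 ± 0.23). For these 4 genes no library of 6 ss reached a library of 10 ss. Foxo3b, a forkhead factor of stress responses, did not overlap either, going from 0 to 3.34 CPM (median 2.05) to 3.58 to 13.9 CPM (median 8.63). Gadd45aa (1.92), the apoptosis gene bbc3 (1.35), baxa (0.39) and btg2 (0.22) were called higher with overlap, and 3 of them lost the call in some alternatives. These were bbc3 (without 10 ss replicate 4 or 5 and with voom), btg2 (without 10 ss replicate 5 or 8 and in the fit over 81 libraries) and baxa (without 6 ss replicate 1, 6, 7 or 8, without 10 ss replicate 4, 5, 7 or 8, with voom and in the fit over 81 libraries). Cdkn1a, the cyclin-dependent kinase inhibitor p21, was at 0 to 4.44 CPM (median 0.836) and 0 to 4.79 CPM (median 3.35) and was not called (adjusted p = 0.497). What these genes moved with, beside the stage, was not tested.

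Several of these genes and of those with the largest changes were followed into the S libraries of 15 ss (n = 5) and into the plain libraries, another set without the S mark, of 6 ss (n = 8) and 15 ss (n = 4). All 33 libraries were scaled together for this. The number used in the sample sheet was 15 for the S libraries of 15 ss and 50 for the plain libraries of both stages. Ccng1 was at 494 to 626 CPM in the 6 ss S libraries and 984 to 1175 CPM in those of 10 ss, and at 1134, 651, 1091, 676 and 593 CPM in replicates 1 to 5 of 15 ss. Rps27l, at 309.9 to 414 CPM at 10 ss, was at 346, 134, 256, 133 and 81.0 CPM in the same 5 libraries. For ccng1, replicates 1 and 3 of 15 ss stood among the 10 ss libraries and replicates 2, 4 and 5 near those of 6 ss. For rps27l, replicate 3 lay between the stages. Phb2a split them alike, at 13.9, 0, 15.6, 1.32 and 1.54 CPM, and so did si:ch211-132b12.1, at 0, 21.7, 0, 26.4 and 30.3 CPM, which was high in the replicates where phb2a was low. Mt-cyb, at 1203 to 1605 CPM at 6 ss and 806 to 1056 CPM at 10 ss, was at 1187, 2158, 1110.3, 2104 and 2379 CPM. Rpl12 was at 2810, 3958, 2855, 3614 and 3705 CPM, with replicates 1 and 3 within the 10 ss range. Si:dkey-83k24.5 was at 38.8, 13.2, 27.4, 14.5 and 14.4 CPM, with replicate 1 in the 10 ss range and the others between the stages. Ss18l2 was at 14.4, 44.1, 13.1, 34.3 and 38.3 CPM. Its replicates 1 and 3 lay in the 10 ss range and the others in the 6 ss range. CT955963.1 was at 111.2, 295.5, 94.98, 204.3 and 242.5 CPM. Its replicates 1 and 3 lay in the 10 ss range, replicate 2 in the 6 ss range and the others between the stages. Phlda3 was at 17.7, 4.98, 13.5, 5.60 and 6.43 CPM, highest in replicates 1 and 3. Hspb1 (394 to 589 CPM) and si:ch211-152c2.3 (70.8 to 120 CPM) did not split and lay below the 10 ss range in all 5. In the plain libraries ccng1 was at 607 to 762 CPM at 6 ss and 674 to 717 CPM at 15 ss, and phb2a at 0 to 6.55 CPM at 6 ss and at most 4.25 CPM at 15 ss. The genes that split the 15 ss libraries therefore differed widely among the libraries of 1 stage. In the S libraries of 6 and 10 ss, stage and other properties shared by all 8 libraries of a group cannot be told apart.

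**Figure D4:**
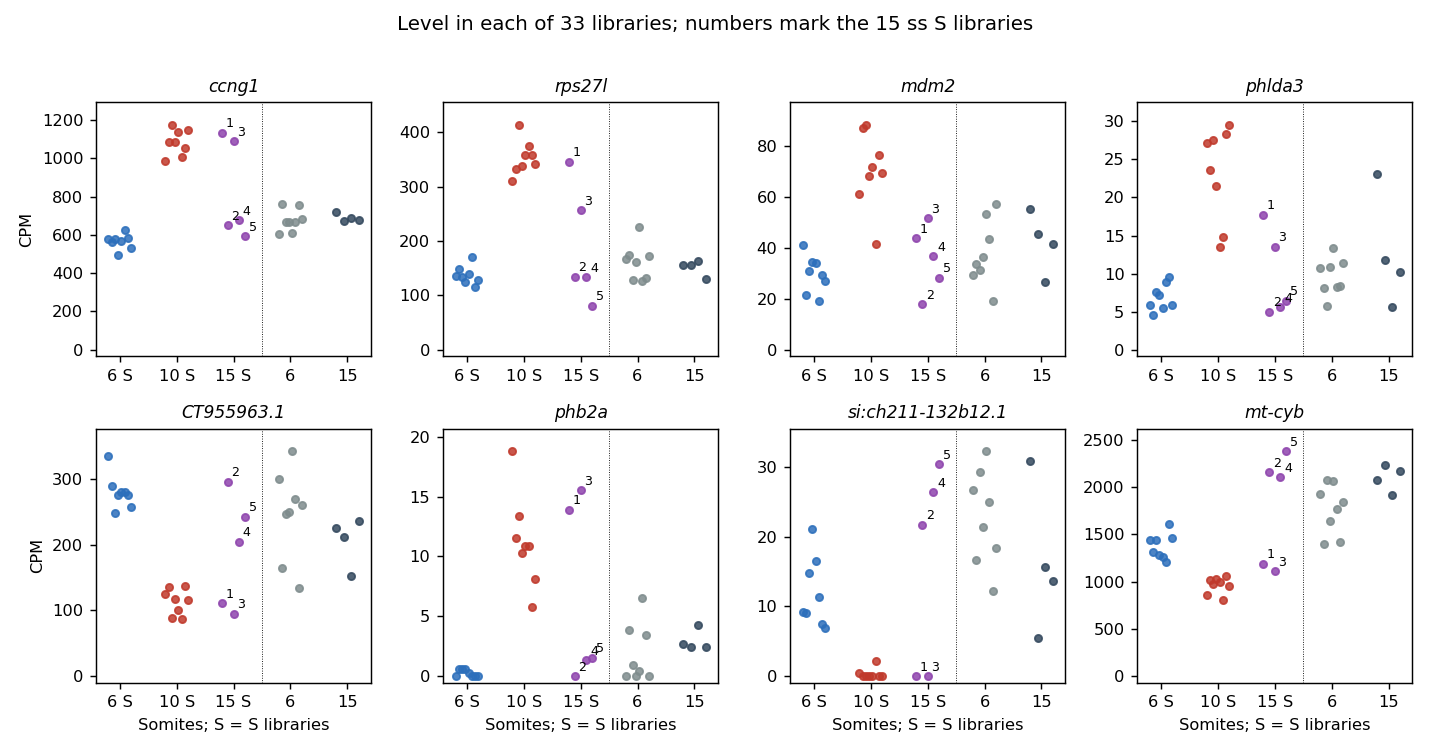
Level in CPM (vertical axis) of 8 genes in each of 33 libraries scaled together, with the S libraries of 6, 10 and 15 ss left of the dotted line and the plain libraries of 6 and 15 ss right of it. The digits mark the 5 replicates of the 15 ss S libraries: replicates 1 and 3 lie with the 10 ss libraries for ccng1 and phb2a, and above replicates 2, 4 and 5 for rps27l.

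Most changes had the same direction in the plain libraries, which share no sample with the S libraries. Of 628 genes that rose and could be tested there, 85.2% had a positive log2 fold change from 6 to 15 ss, against 52.3% of the genes not called from 6 to 10 ss. Of these 628 genes 221 were called higher (35.2%), against 2.88% of the genes not called and 3.87% of all genes tested in the plain libraries (8.36% in either direction). Of 632 genes that fell, 84.3% were below 0, against 47.7% of the genes not called. Of these 632 genes 280 were called lower (44.3%), against 3.25% of the genes not called and 4.49% of all. Only 14 of the genes that rose were called lower and 17 of those that fell were called higher. The plain log2 fold change was 3.18 for myl13, 3.54 for ednrab and 3.17 for gfap. Of the crest list, 5 genes rose and 6 fell there, foxd3 among them (-1.22). Hspb1 (-1.08), vox (-1.31) and wnt8a (-1.46) were lower there too. Of the genes of growth control, those not called there were 0.02 for ccng1 (adjusted p = 0.914), -0.09 for rps27l, 0.15 for mdm2, 0.39 for phlda3, -0.01 for foxo3b, -0.10 for bbc3 and -0.19 for baxa, while gadd45aa (1.44, adjusted p = 0.0414) and btg2 (0.35) rose. Nanos3 (-0.08), inka1a (0.48), muc2.2 (-0.05) and CT955963.1 (-0.25) did not pass either. Nat10, which fell in the S libraries, was at 61.5 to 77.8 CPM in the plain libraries of 6 ss and 73.4 to 94.1 CPM in those of 15 ss. Fosab, an immediate early gene, rose in the S libraries (1.14) and fell in the plain ones (-1.88, adjusted p = 0.00325). Its call in the S libraries was lost without 6 ss replicate 5, without 10 ss replicate 2 or 6, with the replicate block and in the fit over 81 libraries. The plain comparison spans more somites and has 4 libraries at 15 ss, and 403 genes in place of 655 were called higher in it without 15 ss plain replicate 4.

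**Figure D5:**
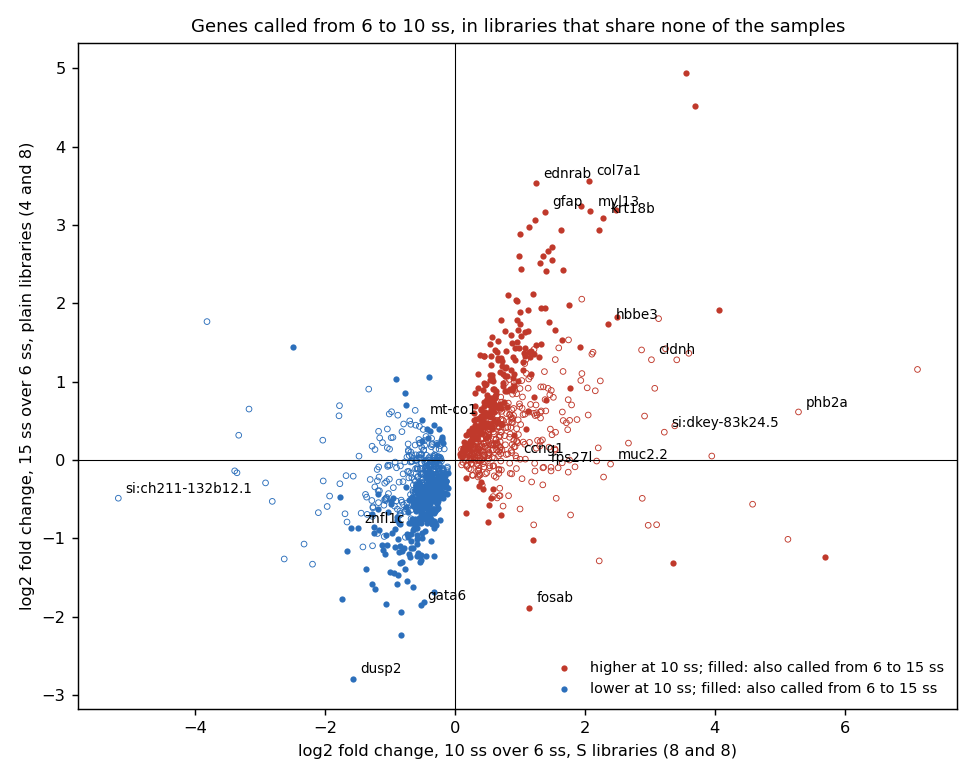
Log2 fold change of 15 ss over 6 ss in the plain libraries (vertical axis) against that of 10 ss over 6 ss in the S libraries (horizontal axis) for the genes called from 6 to 10 ss, red for those that rose and blue for those that fell, filled where the plain comparison also passed the test in either direction. Most points lie in the lower left and upper right, while ccng1 and rps27l lie near 0 on the vertical axis and mt-co1 lies above 0.

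From 10 to 15 ss the S libraries gave 552 genes higher and 560 lower of 16655 tested (3.31% and 3.36%, together 6.68%). This comparison shares the 10 ss libraries with the one above, and values are only set side by side. Sarcomere genes gave 30 higher and 0 lower of 78, with a median log2 fold change of 0.70 after 0.17 in the first step. Myl13 rose again (1.68, adjusted p = 5.89e-23), and myog, not called before, had 1.83 (adjusted p = 1.73e-16). Tailbud genes gave 8 lower of 22, with -1.34 for wnt8a and -1.29 for cdx1a. Szl had -2.41 (adjusted p = 5.24e-10) after -1.18. The clock gene her1 (-0.11, adjusted p = 0.895) did not pass from 10 to 15 ss. Ednrab (1.37) and gfap (adjusted p = 7.40e-11) rose in both steps, while rx3 (-1.28) and hspb1 (-1.26) fell in both.

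Of the lists not described above, the calls between 6 and 10 ss were 5 higher and 5 lower of 32 otic and placode genes, 6 higher and 4 lower of 51 cell cycle genes (ccng1, gadd45aa and btg2 among the higher), 3 higher and 6 lower of 36 midbrain and hindbrain genes, 3 higher and 2 lower of 27 endoderm genes, 2 higher and 1 lower of 43 motile cilia genes, 3 higher and 1 lower of 28 glycolytic genes, 4 higher and 1 lower of 29 heat shock genes and 4 higher and 2 lower of 32 immediate early genes (mdm2 among the higher). Of 16 pronephros genes and of 25 circadian clock genes 1 fell each, and of 11 left-right genes 0 passed. Over all genes tested 4.04% rose and 4.06% fell, and counts such as those of motile cilia genes (4.65% and 2.33%) lay near these shares.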

How the data were processed

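Total RNA of whole zebrafish embryos was measured by Lasy-Seq. Per the labels and the methods of the study, the authors trimmed read 1 with fastp 0.21.0, mapped it with BWA-MEM 0.7.17-r1188 to the Ensembl GRCz11 cDNA set and counted with salmon 0.12.0 in an unstranded mode. The deposited values are estimated counts per gene symbol without normalization. They were rounded (2 values of the table were not whole). Since strand was not used, reads of a gene and of its antisense partner cannot be told apart, and near copies may share reads. Of 24801 symbols 19142 were found among RefSeq symbols.

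The 16 S libraries were fitted by stage with edgeR 4.0.16 (TMM, glmQLFit and glmQLFTest, R 4.3.3), keeping each gene counted once or more in 8 libraries. Genes were called at a Benjamini-Hochberg adjusted p under 0.05, two-sided, and SEs are of the log2 fold change. The plain libraries of 6 and 15 ss (counted in 4 libraries) and the S libraries of 10 and 15 ss (in 5) were fitted alike. CPM values use TMM scaling over the 16 libraries, or over 33 where stated, and marker sums use library totals. The fit was checked on simulated counts. Over genes with at least 50 and under 200 reads in a pair, replicates differed by 3.52 to 4.20 times the sampling variance (28 pairs a stage). No pair was therefore 1 library counted again. Separate libraries of the same RNA and libraries of separate embryos cannot be told apart in this way.

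Alternatives were DESeq2 1.42.0, limma 3.58.1 (voom), other size factors, 3 filters, all 81 libraries of the numbered set, a replicate block and leaving out each library. Named are the 15 largest rises and falls among called genes of at least 5 CPM without overlap, and of each of 42 gene lists the 3 largest rises and falls and the first 3 members, of which not all are printed. Genes outside this rule (baxa, bbc3, bmp7a, btg2, cdkn1a, cdx4, chrd, col14a1a, desma, dkc1, hnrnpl2, pou3f3a, pou3f3b, ripply1, rps27l, srsf5a, srsf6a, srsf6b, tnnt2c, ved and znfl1) were chosen after their values were seen, as were 5 further lists (znfl1, other znf, splicing, proteasome and mitochondrial ribosome). The members and lists were chosen with earlier results of these data known. Lists are described by counts, with no test over a list. Some items are not reported here.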

Additional observations from a re-analysis of the deposited data

Results flagged for a closer look

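In 21 of 316 groups of 8 libraries (154 named genes and 4 measures of the libraries, such as total counts, at each stage), 1 library stood apart from the others by Dixon's criterion (0.526 for 8 samples). Chance gives about 1 in 20, here 15.8. The outlying libraries were spread over 11 of the 16.

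Among 6 ss libraries, replicate 1 was the lowest for chrng (0.418 CPM), msgn1 (330.3 CPM) and myod1 (12.5 CPM). Replicate 8 was the lowest for baxa (26.2 CPM) and crestin (49.8 CPM) and the highest for nat10 (113 CPM). Replicate 7 was the lowest for hbbe3 (0.417 CPM) and the highest for myl7 (3.76 CPM). The highest values came from replicate 4 for anxa1a (264 CPM), replicate 5 for hbbe1.1 (24.6 CPM) and replicate 6 for zgc:101744 (75.8 CPM).

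Among 10 ss libraries, replicate 1 was the lowest for fgf8a (19.2 CPM) and zp3b (2.399 CPM) and the highest for anxa1a (182 CPM). Replicate 5 was the highest for baxa (73.9 CPM) and the lowest for rfx4 (2.64 CPM). Replicate 6 was the highest for si:ch211-132b12.1 (2.18 CPM) and zic4 (17.0 CPM). Replicate 7 was the highest for fn1a (133 CPM) and the lowest for hbbe1.1 (12.5 CPM), and replicate 4 the highest for col14a1a (25.9 CPM). The cause was not tested in any of these.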

How the results depend on the processing

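Of 170 counts of genes under the alternatives, 166 stayed within 1.5 times the reported count, and every called named gene kept its direction. Of 3813 values of named genes 180 lost the call and 6 gained it, and myl7 and nkx2.5, not called, changed sign. Of 1175 list medians 29 moved beyond the spread, and the medians of 13 lists crossed 0 (such as that of myogenic regulation, -0.08 to 0.24). Of 142 named genes called, 101 kept the call in every alternative that gave them an adjusted p. For some genes these were fewer than 25, such as 15 for cox7a1 and 23 for hoxc11a. Between 6 and 10 ss, genes lower by at least 1 log2 unit numbered 186 with a count in any library as the filter, and with all 81 libraries in the fit 304 were higher and 140 lower by that much, with 722 and 451 called (61.6% higher, against 49.9%). From 6 to 15 ss in the plain libraries, 403 to 493 genes were called higher when 1 library of 15 ss was left out, 403 without replicate 4. The cause was not tested. Leaving out each S library gave 545 to 686 genes higher and 521 to 614 lower. DESeq2 called 811 higher and 718 lower (1813 adjusted p not given), voom 728 and 701, and library totals without TMM 746 and 541. The replicate numbers did not pair the libraries (correlations of -0.04 to 0.04 over 9633 genes, 2 of 8 libraries best matched to their own number). With the replicate block 649 genes were higher and 648 lower, 602 and 607 of them shared. With the plain and the 15 ss S libraries the block gave 537 and 579, and 485 and 433. Leaving out shallow libraries had none to leave out, so that alternative gave no value. Depth limits genes under a few CPM, where 1 library holds few counts, and 8 libraries a stage limit small changes.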
